A study of Mus musculus with 12 samples.

Results

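Yap1 and Wwtr1, which encode the transcriptional coactivators YAP and TAZ, were followed in mouse inner medullary collecting duct (mIMCD3) cells together with the 4 TEAD genes and 4 genes that YAP and TAZ are known to induce. These 10 genes were picked by their symbols from the 47642 genes of the table, of which 25060 had any count. The induced genes were Ctgf and Cyr61, listed under the newer symbols Ccn2 and Ccn1, and Ankrd1 and Amotl2. In the Hippo pathway, the MST kinases activate the LATS kinases, which phosphorylate YAP and TAZ and so keep them out of the nucleus. Unphosphorylated YAP and TAZ enter the nucleus and bind TEAD proteins, which bring them to the DNA of their target genes. Cell density, junctions, polarity and tension on the cytoskeleton all feed into the pathway, and in kidney epithelia it is best known for its part in tubule growth and cyst formation. Most of its regulation acts on the proteins, which these data did not measure.

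RNA was sequenced from 3 genotypes of mIMCD3 cells, a line from mice that carry the SV40 early region, so that all cells compared share this transgene. Wild-type cells were compared with 1 Pkd1-/- clone, made with CRISPR and lacking nearly the whole gene, and with 1 Pkd2-/- clone, made with TALENs and lacking internal exons. No cells were treated, the medium held 10% serum, and RNA was taken 4 days after full confluency. Of the 6 dishes grown per genotype, 4 were sequenced, chosen by RNA purity, which gave 12 libraries. The replicates of a genotype are dishes of 1 line, so the p-values measure the spread between dishes and not between clones, and a difference made by the deleted gene cannot be told apart from one between clones. Values are counts of reads per gene that were divided by a size factor per library and rounded, here called normalized counts, and they summed to between 25966273 and 28027792 per library. Pkd1 transcripts, at 782 ± 112 in wild-type (SD, n = 4), were down to 41.8 ± 8.81 in the Pkd1-/- clone. Pkd2 stood at 3971 ± 451 in wild-type and 3986 ± 124 in Pkd2-/- cells. Exons outside the deletion still count toward this total, so it is no check of that clone. The paper reports that the transcript left in Pkd2-/- cells was detected mainly for the last exon. Why the total was not lower was not tested here. Of 14 markers of collecting duct and tubule, 13 had a count, among them Cdh1, Epcam, Krt8, Krt18, Pax2 and Pax8. Aqp2, the water channel of principal cells, was at 0 in every library. Avpr2 and Aqp3, which are among the 13, reached at most 1 and 6 counts in any library. The summed marker level was 71349 to 78816 normalized counts in wild-type, 71755 to 73449 in Pkd1-/- cells and 80928 to 83515 in Pkd2-/- cells. Of the 5 endothelial markers, none exceeded 9 counts in any library, and of the 5 leukocyte markers only Cd68, a lysosomal protein that is not limited to them, exceeded 5.

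TEAD proteins recognise a short DNA element, GGAATG, read as CATTCC from the other strand. RefSeq sequences of the 250 bases before annotated transcription starts (GRCm38.p6) were found for 7 of the 10 genes, in 10 windows. Tead1, Tead4 and Ctgf had no such sequence, and the windows of the other genes were searched for the element. In Cyr61 it lay on the opposite strand, 98 to 103 bases before the start, in a window on chr3:145649986-145650235 (minus strand, upstream of every annotated exon of the gene). The capitals mark the element.
Cyr61 promoter: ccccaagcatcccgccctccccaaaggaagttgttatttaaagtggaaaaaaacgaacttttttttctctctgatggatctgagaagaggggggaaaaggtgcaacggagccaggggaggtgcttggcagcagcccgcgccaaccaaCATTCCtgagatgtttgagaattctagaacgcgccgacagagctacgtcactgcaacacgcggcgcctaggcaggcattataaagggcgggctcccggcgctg

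The sites of the other genes are given as 30 bases each, on the strand of the gene, so that the bases around the element can be compared. Ankrd1 held a pair of them, at chr19:36120037-36120066 and chr19:36119950-36119979 (minus strand), both inside an exon of a longer GENCODE transcript. The Amotl2 site, at chr9:102717727-102717756 (plus strand), also overlapped an annotated exon. The Yap1 site, at chr9:8004720-8004749, and the Wwtr1 site, at chr3:57576029-57576058 (both minus strand), lay outside all annotated exons of their genes. Tead3 held 3 sites on the minus strand, at chr17:28350970-28350999, outside annotated exons, and at chr17:28350706-28350735 and chr17:28350697-28350726, which overlap each other and an exon.
Ankrd1 distal: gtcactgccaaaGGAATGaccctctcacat
Ankrd1 proximal: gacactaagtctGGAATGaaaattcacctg
Amotl2: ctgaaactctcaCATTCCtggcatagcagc
Yap1: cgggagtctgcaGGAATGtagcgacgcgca
Wwtr1: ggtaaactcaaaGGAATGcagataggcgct
Tead3 distal: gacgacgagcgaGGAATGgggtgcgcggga
Tead3 middle: tccggccgggctCATTCCgtacattccggc
Tead3 proximal: gctcattccgtaCATTCCggccatccccct

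In all, 6 of the 7 genes and 8 of their 10 windows held GGAATG on either strand, and Tead2 held none. Across all 32851 promoters of the same length, 12.6% held it. The windows of Wwtr1 overlap and share 1 site, and 2 windows of Tead3 overlap in part. Neither the AP-1 element TGANTCA, which 6.75% of all promoters held, nor the CArG box of serum response factor, which 1.47% held, was found in the 10 windows. Such a match describes the letters of the window only, and no binding was measured.

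Of the target genes, Ankrd1 and Ctgf changed in both mutants. Ankrd1 encodes a nuclear ankyrin repeat protein that responds to stretch in muscle and is among the genes most often used to read YAP activity (chr19:36111961-36120099, minus strand). It stood at 2093, 2065, 2060 and 2504 normalized counts in wild-type libraries 1 to 4, at 615, 717, 625 and 715 in the Pkd1-/- libraries, and at 3721, 3851, 3298 and 4065 in the Pkd2-/- libraries. The 3 genotypes did not overlap, with Pkd1-/- lowest and Pkd2-/- highest. In Pkd1-/- cells Ankrd1 fell by 1.70 on the log2 scale, or 3.26-fold (standard error 0.08, adjusted p = 4.48e-12 from limma over 18552 genes). It rose in Pkd2-/- cells by 0.78, or 1.71-fold (standard error 0.08, limma adjusted p = 1.20e-07). Fold changes here and below are differences of mean log2(normalized count + 1).

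Ctgf encodes a secreted matricellular protein of the CCN family (chr10:24595442-24598683, plus strand). Its libraries 1 to 4 held 5068, 6553, 7102 and 8736 normalized counts in wild-type, 2629, 3386, 3748 and 4433 in Pkd1-/-, and 8474, 9678, 11235 and 15476 in Pkd2-/- cells. All Pkd1-/- libraries lay below all wild-type libraries, whereas the lowest Pkd2-/- library lay below the highest wild-type library. Ctgf fell by 0.95 on the log2 scale in Pkd1-/- cells (standard error 0.17, limma adjusted p = 3.54e-04), or 1.93-fold. It rose by 0.70 in Pkd2-/- cells (standard error 0.17, limma adjusted p = 0.003), or 1.62-fold. By exact permutation (two-sided, 4 against 4, lowest possible p 0.0286), the Pkd1-/- difference gave p = 0.0286 and the Pkd2-/- difference p = 0.0571.

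Cyr61, a CCN relative of Ctgf and a fast-responding gene (chr3:145646976-145649981, minus strand), varied most between dishes. In libraries 1 to 4 it held 29131, 47935, 54423 and 65525 normalized counts in wild-type, 24542, 34218, 40409 and 47138 in Pkd1-/-, and 44472, 51717, 62746 and 107093 in Pkd2-/- cells. Its values overlapped between every pair of genotypes. Its log2 fold change against wild-type was -0.41 in Pkd1-/- cells (95% confidence interval -0.93 to 0.11, limma adjusted p = 0.257) and 0.41 in Pkd2-/- cells (-0.11 to 0.93, limma adjusted p = 0.209). Neither passed the test, and single libraries moved both values. In Pkd1-/- cells the log2 fold change was -0.23 without Pkd1-/- library 1, -0.25 without wild-type library 4 and -0.64 without wild-type library 1. In Pkd2-/- cells it was 0.15 without Pkd2-/- library 4 and 0.18 without wild-type library 1.

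Amotl2 encodes an angiomotin, a junctional protein that binds YAP and holds it in the cytoplasm, and it is also a target of YAP (chr9:102716672-102733418, plus strand). Wild-type libraries held 8076, 9062, 10152 and 9335 normalized counts, Pkd1-/- libraries 6401, 7155, 7238 and 7271, and Pkd2-/- libraries 8211, 8281, 8466 and 10294. The Pkd1-/- libraries were all below wild-type, a fall of 0.38 on the log2 scale (standard error 0.07, limma adjusted p = 6.26e-04). The Pkd2-/- libraries lay within the range of wild-type but for library 4, with a log2 fold change of -0.06 (95% confidence interval -0.21 to 0.10, limma adjusted p = 0.586).

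**Figure D1:**
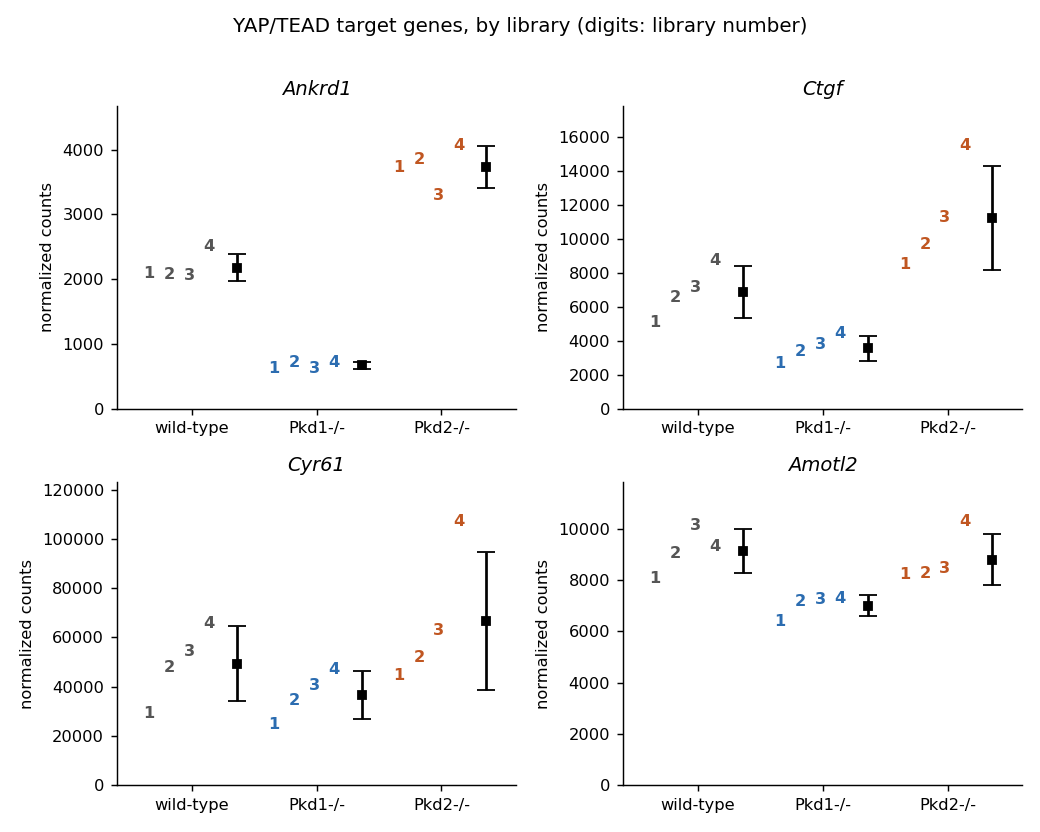
Normalized counts of the 4 target genes (vertical axes, from 0) in wild-type, Pkd1-/- and Pkd2-/- cells; each digit is a library by its number, and the square and bar beside them are the mean and SD of 4 libraries. Ankrd1 separates the 3 genotypes, at 668 ± 55.6 in Pkd1-/-, 2180 ± 216 in wild-type and 3734 ± 323 in Pkd2-/- cells, while Cyr61 overlaps between them.

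The coactivators differed less from wild-type than Ankrd1 and Ctgf. Yap1 (chr9:7931999-8004596, minus strand) held 4888, 4728, 4550 and 4816 normalized counts in wild-type, 5111, 5202, 5032 and 5155 in Pkd1-/-, and 4200, 4842, 4148 and 4530 in Pkd2-/- cells. Although the Pkd1-/- libraries were all above wild-type, the log2 fold change of 0.11 did not pass the test (95% confidence interval 0.01 to 0.21 before adjustment, limma adjusted p = 0.107). Nor did that of -0.10 in Pkd2-/- cells (-0.21 to 0.00, limma adjusted p = 0.11), which reached -0.15 (limma adjusted p = 0.0217) without Pkd2-/- library 2.

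Wwtr1 (chr3:57455649-57575910, minus strand), which encodes TAZ, was lower in both mutants. Its libraries held 11800, 10861, 11049 and 11750 normalized counts in wild-type, 9023, 8917, 9079 and 9081 in Pkd1-/-, and 9339, 10515, 9433 and 10580 in Pkd2-/- cells. Both sets of mutant libraries lay below all wild-type libraries, and the Pkd1-/- dishes were unusually alike, with a coefficient of variation of 0.852%. Wwtr1 fell by 0.33 in Pkd1-/- (standard error 0.05, limma adjusted p = 3.70e-05) and by 0.19 in Pkd2-/- cells (standard error 0.05, limma adjusted p = 0.00371) on the log2 scale. Per kb of annotated exon, Wwtr1 was the more abundant of the pair in every library. The ratio of Wwtr1 to Yap1 counts per kb was 4.64 ± 0.128 in wild-type, 3.41 ± 0.0715 in Pkd1-/- cells and 4.36 ± 0.136 in Pkd2-/- cells (SD, n = 4). Taken per kb of the longest transcript instead, these ratios were 2.69, 1.98 and 2.53.

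The 4 TEAD genes differed in direction, while the ranges of their summed level per kb overlapped between wild-type and each mutant. Tead2 (chr7:45215753-45233644, plus strand), the TEAD best known from early embryos and neural progenitors, held 1402, 1533, 1531 and 1526 normalized counts in wild-type, 1996, 1680, 1720 and 1667 in Pkd1-/-, and 953, 938, 1079 and 883 in Pkd2-/- cells. No 2 genotypes overlapped. It rose by 0.23 in Pkd1-/- cells (standard error 0.07, limma adjusted p = 0.0147) and fell by 0.64, or 1.56-fold, in Pkd2-/- cells (standard error 0.07, limma adjusted p = 3.54e-07). The rise missed the threshold without Pkd1-/- library 1, the highest, where it was 0.17 (limma adjusted p = 0.0581), and without wild-type library 1, the lowest, 0.20 (limma adjusted p = 0.0522).

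Tead4 (chr6:128224288-128300823, minus strand), needed for the trophectoderm lineage of the embryo, moved the other way. It held 295, 284, 328 and 299 normalized counts in wild-type, 240, 258, 251 and 245 in Pkd1-/-, and 410, 388, 424 and 457 in Pkd2-/- cells, again without overlap. Tead4 fell by 0.28 in Pkd1-/- (standard error 0.08, limma adjusted p = 0.0121) and rose by 0.48, or 1.39-fold, in Pkd2-/- cells (standard error 0.08, limma adjusted p = 6.25e-05).

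Tead1 (chr7:112679318-112906807, plus strand), a broadly expressed TEAD with a role in heart muscle, held 3583, 2993, 3345 and 4307 normalized counts in wild-type, 3008, 3293, 3167 and 3611 in Pkd1-/-, and 4230, 4705, 3544 and 5019 in Pkd2-/- cells. All 3 genotypes overlapped. Its log2 fold change was -0.11 in Pkd1-/- cells (limma adjusted p = 0.482) and 0.30 in Pkd2-/- cells (limma adjusted p = 0.0247). The latter passed the threshold in limma, while the exact permutation test gave p = 0.143. Without Pkd2-/- library 2 or 4 its adjusted p was 0.0787 and 0.0835, and without wild-type library 2 or 3 it was 0.103 and 0.0676.

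Tead3 (chr17:28331671-28350817, minus strand), which is prominent in placenta, held 734, 912, 885 and 751 normalized counts in wild-type, 913, 921, 1049 and 906 in Pkd1-/-, and 712, 707, 766 and 700 in Pkd2-/- cells. Wild-type overlapped with both mutants, which did not overlap each other. The log2 fold change was 0.21 in Pkd1-/- cells (limma adjusted p = 0.0444) and -0.18 in Pkd2-/- cells (limma adjusted p = 0.063). The first of these missed the threshold with 8 of the 12 libraries left out one at a time, namely any Pkd1-/- library, Pkd2-/- library 1 or 2 and wild-type library 1 or 4, the adjusted p then lying between 0.0512 and 0.159. The second passed it without wild-type library 1 or 4 or Pkd2-/- library 3, with an adjusted p of 0.0222, 0.0331 and 0.047.

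**Figure D2:**
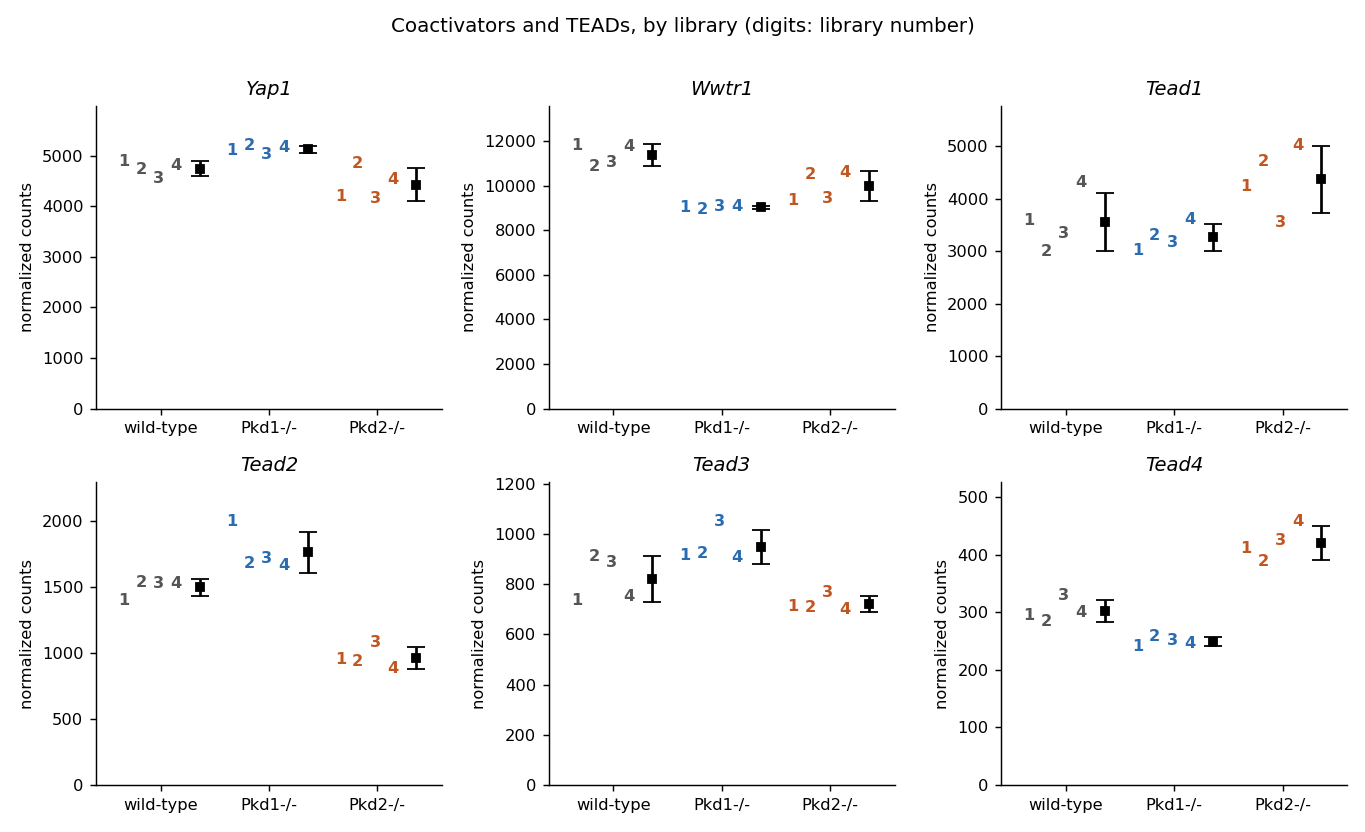
Normalized counts of Yap1, Wwtr1 and the 4 TEAD genes (vertical axes, from 0) by genotype; each digit is a library by its number, and the square and bar are the mean and SD of 4 libraries. Tead2 was highest in Pkd1-/- and lowest in Pkd2-/- cells, at 1766 ± 155 and 963 ± 82.8, and Tead4 the reverse, at 248 ± 7.77 and 420 ± 28.9.

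To compare TEAD genes with each other, counts were divided by the kb of annotated exon. Summed over the 4 genes, the level per kb was 781 ± 37.9 in wild-type, 820 ± 16.0 in Pkd1-/- cells and 748 ± 29.7 in Pkd2-/- cells (SD, n = 4), and the library ranges of each mutant overlapped that of wild-type. Those of the mutants, 802 to 841 and 718 to 786, did not overlap each other. The makeup of this sum was not the same. In wild-type cells Tead2 took 40.1 ± 1.77% of it, Tead1 33.5 ± 4.04%, Tead3 15.7 ± 2.03% and Tead4 10.7 ± 0.668%. In Pkd2-/- cells the share of Tead2 was 27.0 ± 3.30%, with all libraries below all wild-type libraries, and that of Tead4 was 15.6 ± 0.956%, with all libraries above. Tead1 took 43.0 ± 4.81% there, more than Tead2 in every library, although its range overlapped wild-type. In Pkd1-/- cells Tead2 took 44.9 ± 3.13% and Tead4 8.43 ± 0.418%, each without overlap with wild-type. With the length of the longest transcript in place of all exons, the share of Tead2 was 38.9% in wild-type, 43.1% in Pkd1-/- cells and 26.6% in Pkd2-/- cells.

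**Figure D3:**
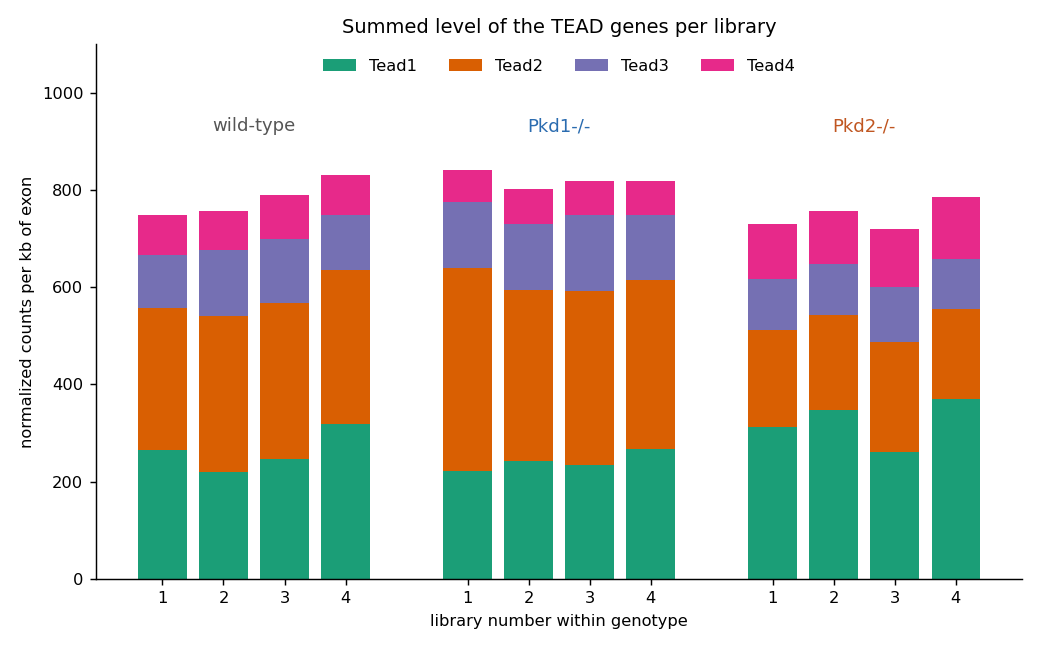
Stacked levels of the 4 TEAD genes in normalized counts per kb of exon (vertical axis) in each of the 12 libraries (horizontal axis, by number within a genotype). The total lies between 718 and 841 over all libraries, lower in each Pkd2-/- than in each Pkd1-/- library, while the Tead2 segment is smaller and the Tead4 segment larger in Pkd2-/- cells.

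On the same scale of counts per kb of exon, Cyr61 was the most abundant of the 10 genes in each genotype, at 24395 ± 7560 in wild-type cells. Ctgf followed at 2399 ± 529 and Wwtr1 at 2378 ± 100.0, which did not differ beyond their spread, then Amotl2 at 1456 ± 136, Ankrd1 at 756 ± 74.9 and Yap1 at 513 ± 15.8 (SD, n = 4). Tead2 and Tead1, at 313 ± 13.4 and 262 ± 40.9, were close to each other, and Tead3 and Tead4 were lowest at 122 ± 13.6 and 83.8 ± 5.22. In Pkd1-/- cells Wwtr1, at 1888 ± 16.1, stood above Ctgf, at 1240 ± 263, and Ankrd1 fell to 231 ± 19.3, next to Tead1 at 241 ± 18.8. Ctgf reached 3920 ± 1070 and Ankrd1 1294 ± 112 in Pkd2-/- cells, the latter next to Amotl2 at 1401 ± 158.

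Counted over the 10 genes, 7 changed in Pkd1-/- cells at an adjusted p under 0.05 in limma, of which 2 were higher and 5 lower, where 27.1% of all 18552 genes tested changed. Only Ankrd1 also changed by at least 1 on the log2 scale, as 6.24% of all genes did, and Ctgf joined it without wild-type library 1 (-1.09) or Pkd1-/- library 4 (-1.07). Of the same genes, 6 changed in Pkd2-/- cells, 4 higher and 2 lower, beside 42.3% of all genes. With the threshold of 1 added, 0 of the 10 were called by limma, also at an unadjusted p under 0.05, beside 9.62% of all genes. Over all 10 genes, the median log2 fold change was -0.30 in the Pkd1-/- clone and 0.12 in the Pkd2-/- clone, against 0.01 and -0.01 for all genes tested. Over the 4 targets it was -0.68 and 0.55.

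**Figure D4:**
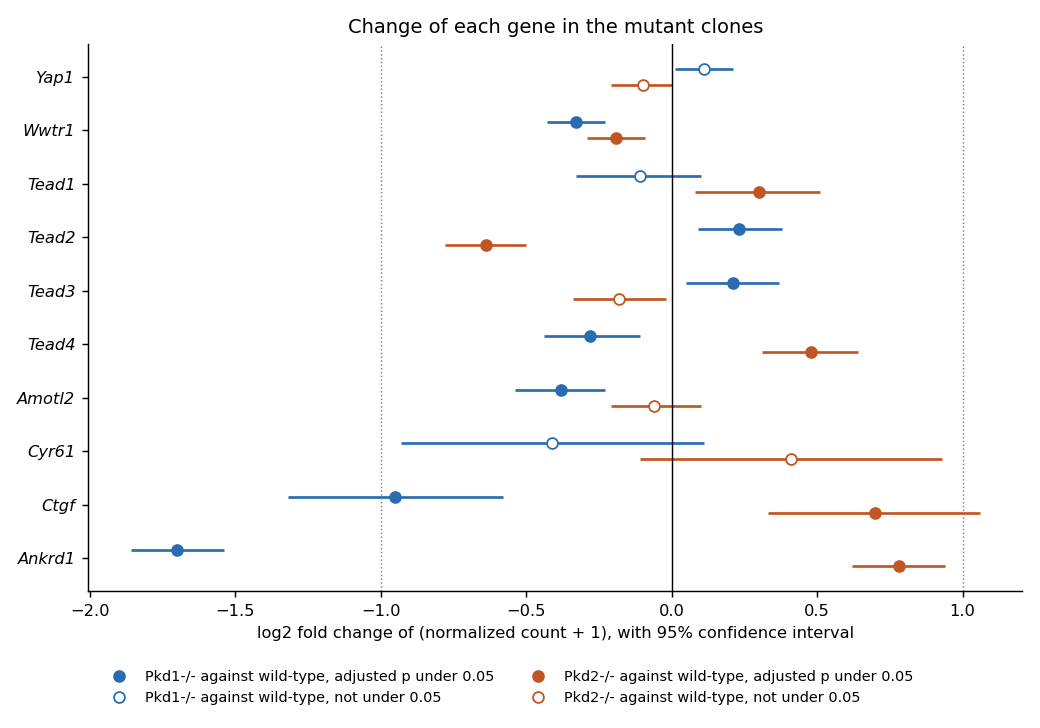
Log2 fold change of each of the 10 genes against wild-type (horizontal axis, with 95% confidence intervals) in Pkd1-/- (blue) and Pkd2-/- (orange) cells. Filled points passed an adjusted p under 0.05 in limma, and dotted lines mark the threshold of 1. Ankrd1 in Pkd1-/- cells, at -1.70, lies alone beyond it.

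Both comparisons use the same wild-type libraries, so the mutants were also compared with each other, which tests whether their effects differ. All 10 genes differed between the mutants at an adjusted p under 0.05 in limma, 7 higher and 3 lower in Pkd2-/- cells, as did 46.3% of all genes. With a log2 fold change of at least 1, only Ankrd1 and Ctgf did, beside 11.8% of all genes. Ankrd1 was 5.58-fold higher in Pkd2-/- than in Pkd1-/- cells (log2 fold change 2.48, standard error 0.08, limma adjusted p = 4.81e-15), and Ctgf 3.13-fold (1.65, standard error 0.17, limma adjusted p = 2.38e-07). Cyr61, which passed in neither comparison with wild-type, was 1.76-fold higher (0.82, standard error 0.25, limma adjusted p = 0.011), although its lowest Pkd2-/- library lay below its highest Pkd1-/- library.

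Among the TEAD genes, Tead4 and Tead1 were higher in Pkd2-/- than in Pkd1-/- cells, by 0.75 (limma adjusted p = 1.93e-07) and 0.41 (limma adjusted p = 0.00268) on the log2 scale. Tead2 and Tead3 were lower, with log2 fold changes of -0.87 (limma adjusted p = 3.95e-09) and -0.39 (limma adjusted p = 2.61e-04). Amotl2 and Wwtr1 were higher by 0.32 and 0.14, and Yap1 had a log2 fold change of -0.21. The difference in Wwtr1 missed the threshold without Pkd1-/- library 2 (adjusted p = 0.0589 in limma) and without Pkd2-/- library 2 (0.0909) or 4 (0.0785).

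Levels of Ctgf and Cyr61 differed more between dishes of a genotype than those of most genes. The coefficient of variation of Cyr61 was 31.0% in wild-type, 26.3% in Pkd1-/- cells and 42.2% in Pkd2-/- cells, and that of Ctgf 22.1%, 21.2% and 27.3%. Across 6237 genes that averaged 1000 normalized counts or more, its median was 5.27%, 4.40% and 5.52%. Tead1 came next among the 10 genes in wild-type and Pkd2-/- cells, at 15.6% and 14.7%, with 7.82% in Pkd1-/- cells. In each genotype, library 1 was lowest and library 4 highest for Ctgf and Cyr61, with libraries 2 and 3 between them in that order. Of 10649 genes that averaged 100 normalized counts or more, 11, or 0.103%, had this order in all 3 genotypes. These were Ctgf and Cyr61 with Arc, Dusp5, Dusp6, Hbegf, Ier3, Jun, Nr4a1, Rhob and Zfp36, which are known as immediate early or fast-responding genes of growth factor and stress signalling. The list was read off after the values were seen. Ankrd1, Amotl2, the coactivators and the TEAD genes had no common order.

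From library 1 to library 4, Cyr61 differed 2.25-fold in wild-type, 1.92-fold in Pkd1-/- cells and 2.41-fold in Pkd2-/- cells, and Ctgf 1.72-, 1.69- and 1.83-fold. Over the other 9 genes of that order the ratio ranged from 1.46 to 3.00 in wild-type, from 1.19 to 2.04 in Pkd1-/- and from 1.42 to 4.00 in Pkd2-/- cells. Ankrd1 differed only 1.20-, 1.16- and 1.09-fold between the same libraries. Fos, the classic immediate early gene, did not have the common order and is not among those 9 genes. It held 7370 ± 2330 normalized counts in wild-type, 6960 ± 1570 in Pkd1-/- cells and 20760 ± 7900 in Pkd2-/- cells. Fos was thus higher in Pkd2-/- than in wild-type cells by 1.49 on the log2 scale (limma adjusted p = 3.50e-05). Arc held 1753 to 3401 normalized counts in wild-type, 4371 to 6411 in Pkd1-/- cells and 286 to 614 in Pkd2-/- cells. Of the 9 genes, only Arc had all Pkd2-/- libraries below all wild-type libraries. The part of the variation between dishes in the levels of Ctgf and Cyr61 in Pkd2-/- cells was not tested.

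**Figure D5:**
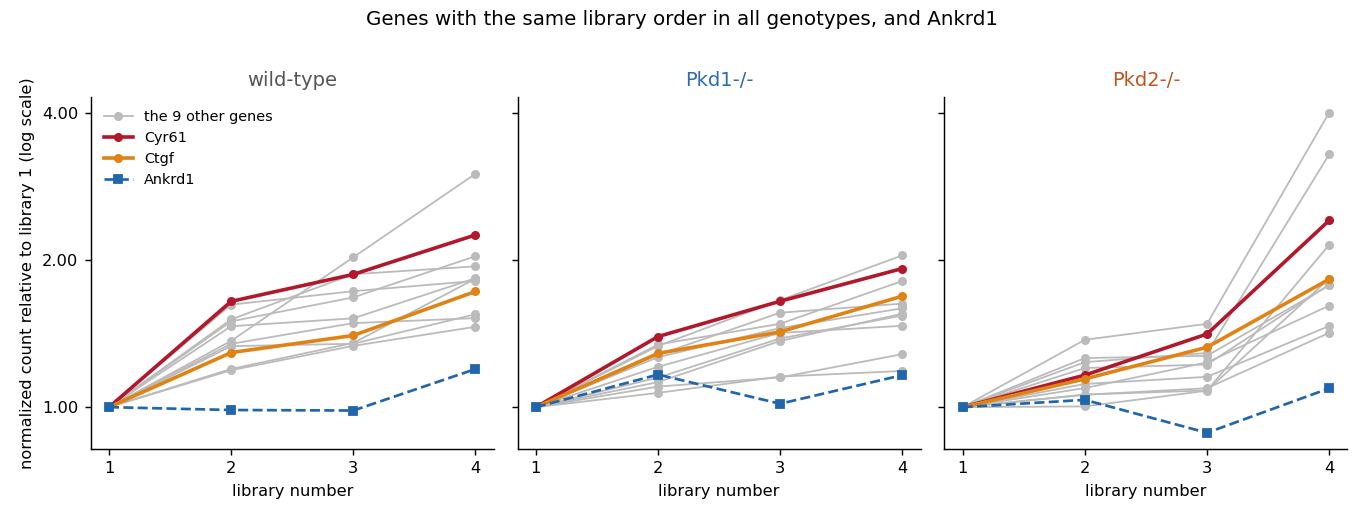
Normalized counts of Cyr61, Ctgf, Ankrd1 and the 9 other genes with a common library order, relative to library 1 of the same genotype (vertical axis, log scale), against library number (horizontal axis). Lines join the libraries of a gene and stand for no time course. At library 4, Cyr61 and Ctgf lie within the range of the 9 other genes in each genotype, and Ankrd1 stays within 1.23-fold between its libraries.

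Upstream of YAP and TAZ stands the Hippo kinase core. Of its 7 genes, 5 changed in Pkd2-/- cells, all upward, beside 42.3% of all genes changed in either direction (median log2 fold change 0.27, against -0.01 for all genes tested), and 3 changed in Pkd1-/- cells, all downward, beside 27.1% (median -0.13, against 0.01). The log2 fold changes were at most 0.54 in size. As examples chosen after their values were seen, Stk4, an MST kinase, went from 2029 ± 284 normalized counts in wild-type to 2920 ± 104 in Pkd2-/- cells (log2 fold change 0.54, limma adjusted p = 9.06e-06), with 2138 ± 71.9 in Pkd1-/- cells. Mob1b, which activates LATS kinases, fell from 2611 ± 419 to 1862 ± 31.2 in Pkd1-/- cells (log2 fold change -0.47, limma adjusted p = 9.17e-04). Sav1, the scaffold of the MST kinases, moved in both, with log2 fold changes of -0.18 and 0.32.

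Of 12 genes of upstream inputs, 11 were tested, with 5 higher and 3 lower in Pkd1-/- cells and 6 higher and 2 lower in Pkd2-/- cells, again beside 27.1% and 42.3% of all genes changed. Fat4, an atypical cadherin, was called in both, at 2 to 5 normalized counts in wild-type, 11 to 35 in Pkd1-/- cells and 0 in all Pkd2-/- libraries. Pkd2-/- cells were at least 1.25-fold lower, against a floor of 3 counts per library. Of 14 genes of further regulators of YAP or TEAD proteins, 12 were tested. Among these, 2 were higher and 3 lower in Pkd1-/- cells, and 3 were higher and 5 lower in Pkd2-/- cells. The shares of all genes changed were the same 27.1% and 42.3%. Vgll3, which competes with YAP and TAZ for TEAD proteins, was called in both. It held 14 to 33 normalized counts in wild-type and 111 to 140 in Pkd1-/- cells (log2 fold change 2.74, limma adjusted p = 2.66e-06). In Pkd2-/- cells it held 0 or 1 count per library and was at least 6.50-fold lower than in wild-type, against a floor of 3 counts per library.

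A further list held 18 genes described as YAP targets in other cells. Among them were Lats2, also counted in the kinase core, and Ptpn14, also counted with the further regulators of YAP or TEAD proteins. Of its 16 genes tested, 4 were higher and 5 lower in Pkd1-/- cells (median log2 fold change -0.12), and 8 were higher and 5 lower in Pkd2-/- cells (median 0.20), beside 27.1% and 42.3% of all genes changed. Named after its values were seen, Myof, a membrane repair protein, was the one called higher in Pkd2-/- cells, at 5082 ± 178 normalized counts in wild-type and 11432 ± 1080 there (log2 fold change 1.17, limma adjusted p = 2.74e-11), with 9144 ± 666 in Pkd1-/- cells (0.85, limma adjusted p = 6.20e-09). Axl, a receptor tyrosine kinase, rose in Pkd1-/- cells, where Ankrd1 and Ctgf fell, from 1001 ± 76.2 to 2504 ± 112 normalized counts (log2 fold change 1.32, limma adjusted p = 1.07e-10). Axl stood at 916 ± 99.7 in Pkd2-/- cells (limma adjusted p = 0.172). Tgfb2, a TGF-beta ligand, fell in both mutants, from 215 ± 4.50 to 44.2 ± 7.59 in Pkd1-/- cells and 30.2 ± 9.74 in Pkd2-/- cells. Fjx1, a secreted kinase-like protein, was lower in both as well, at 12 to 16 normalized counts in wild-type, 0 to 11 in Pkd1-/- cells and 0 in all Pkd2-/- libraries, there at least 4.67-fold below wild-type.

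Several genes of this list were nearly silent in the Pkd2-/- clone. Ccdc80, an extracellular matrix protein, fell from 182 ± 3.56 to 7.00 ± 3.46 normalized counts (log2 fold change -4.61, limma adjusted p = 5.18e-12). Nt5e, the ectonucleotidase CD73, held 35 to 58 in wild-type and 0 to 6 in Pkd2-/- libraries. Rbms3, an RNA-binding protein, was at least 23.7-fold lower, with 57 to 87 normalized counts in wild-type and 0 or 1 in Pkd2-/- libraries. F3 (tissue factor), Gadd45a (a stress response gene) and Nuak2 are named outside the naming rule, after their values were seen. They followed Ankrd1, lower in Pkd1-/- and higher in Pkd2-/- cells. Over all 18552 genes tested, 588 did so at an adjusted p under 0.05 in both comparisons. F3 had log2 fold changes of -0.71 and 0.48 in Pkd1-/- and Pkd2-/- cells, Gadd45a of -0.51 and 0.92 and Nuak2 of -0.41 and 0.52. Each had a limma adjusted p under 0.05. Myof and, also outside the rule, Dock5 were higher in both mutants, while Tgfb2 and Fjx1 were lower in both.

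Among the other CCN genes, Wisp1 was the one called in both mutants. Wisp1, a target of Wnt signalling also named Ccn4, went from 356 ± 22.8 normalized counts in wild-type to 1826 ± 46.1 in Pkd1-/- (log2 fold change 2.36, limma adjusted p = 3.41e-10) and 30.5 ± 7.90 in Pkd2-/- cells (log2 fold change -3.54, limma adjusted p = 4.42e-13). Its order of genotypes was thus the reverse of that of Ctgf. Nov held 1 to 7 normalized counts in wild-type, 4 or 5 in Pkd1-/- cells and 0 to 2 in Pkd2-/- libraries, Wisp3 5 to 19 over all libraries and Wisp2 at most 2. Wisp3 passed the test in neither mutant (limma adjusted p = 0.314 and 0.403). The ankyrin repeat paralogs of Ankrd1, Ankrd2 and Ankrd23, reached at most 2 and 15.

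Genes of serum response factor and its MRTF cofactors, which share targets with YAP and respond to actin, were divided. Of 11 tested, 2 changed in Pkd1-/- cells, both lower, beside 27.1% of all genes, and 4 rose and 4 fell in Pkd2-/- cells, beside 42.3%. The contractile genes Myl9, Acta2 and Tagln fell in Pkd2-/- cells, from 106 ± 6.13, 120 ± 15.9 and 109 ± 14.4 normalized counts in wild-type to 8.25 ± 5.25, 21 ± 1.83 and 33.8 ± 8.85. These and Fos, which rose, were the 4 genes of this list called in Pkd2-/- cells.

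Among the tubule markers, Gata3, a transcription factor of the collecting duct, was the one called. It held 227 ± 34.3 normalized counts in wild-type, 48.5 ± 5.74 in Pkd1-/- (log2 fold change -2.20, limma adjusted p = 6.34e-10) and 354 ± 58.4 in Pkd2-/- cells (0.64, limma adjusted p = 9.68e-04), the same order of genotypes as Ankrd1. Of the 12 markers tested, 1 rose and 3 fell in Pkd1-/- cells, and 8 rose and 2 fell in Pkd2-/- cells, where 27.1% and 42.3% of all genes changed. The 7 fibroblast markers summed to 32 to 58 normalized counts in wild-type, 89 to 103 in Pkd1-/- and 15 to 141 in Pkd2-/- cells. Col3a1 rose in Pkd1-/- cells, from 3 to 7 counts to 62 to 69, while Col1a1 and Col1a2 did not pass there (limma adjusted p = 0.723 and 0.899). Col1a1, Col1a2 and Col3a1 held 16, 7 and 16 counts in Pkd2-/- library 1 and 31, 44 and 42 in library 3. In Pkd2-/- libraries 2 and 4 each held at most 4. Pdgfra and Lum reached at most 2 counts in any library. The part of other cell types in the differences was not tested.

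The genes most like Ankrd1 over the 12 libraries, by the distance between log2 values centred on the wild-type mean, were Usp29, Peg3, Ddx3y, Fam171a1 and Cdkl1, at distances from 0.71 to 0.81. Peg3, an imprinted zinc finger gene, held 3827 normalized counts on average in wild-type, 1397 in Pkd1-/- cells and 6454 in Pkd2-/- cells. Usp29, its imprinted neighbor, held 144, 38.5 and 256. Ddx3y, a Y-linked RNA helicase, held 3581, 1176 and 4919, Fam171a1 1080, 263 and 2114, and Cdkl1 2312, 872 and 3558. The other 9 genes described here were left out of this search, so it does not show how close they are to Ankrd1.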

How the data were processed

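Per the authors' methods, reads were trimmed with Trim Galore, aligned to mm10 (GRCm38) with HISAT2 and counted per gene with htseq-count. The deposited score values are these counts divided by DESeq2 size factors and rounded by the authors, so depth and whole reads cannot be recovered, and models of read counts were not applied. Whether counting used strand is not given in the sources used here. Tead2, Ctgf and Yap1 overlap exons of Cd37, Gm15270 and Gm20416, which held at most 3, 11 and 1 counts. Symbols, positions and exon lengths came from GENCODE M21 (47223 of 47642 identifiers matched), promoters from RefSeq. All 12 sample columns were used (0 left out), and 0 pairs of libraries were identical.

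Genotypes were compared with limma 3.58.1 in R 4.3.3 on log2(normalized count + 1), with a variance trend, over 18552 genes averaging 1 or more, in 1 model of all libraries, with Benjamini-Hochberg adjustment over all genes within each of 3 comparisons. A gene changed at an adjusted p under 0.05 and was called with a log2 fold change of at least 1 as well. The script was tested on simulated data. Single genes were also tested with two-sided exact permutation tests (35 distinct splits). Summaries used Python 3.11.15, pandas 2.3.3 and scipy 1.17.1. The intervals do not cover variation between clones. Nor does the floor of 3 counts, used for groups whose libraries all held 3 counts or fewer, which covers counting error only.

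The genes and lists were chosen with earlier results of these data known. Beside the 10 genes, Pkd1 and Pkd2, the text names at most 4 called genes per list and comparison, with the largest changes, any gene of lists of at most 5, and the 5 genes most like a gene called against wild-type, among genes averaging 100 or more. Exceptions are named as such. Alternatives were pseudocounts of 0.5 and 5, no filter, a minimum mean of 10, no variance trend, only the genotypes compared, equal upper quartiles, a replicate block, the longest transcript as length, and each library left out.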

Additional observations from a re-analysis of the deposited data

Results flagged for a closer look

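In 6 of 30 groups of 4 libraries, 1 library stood far from the others, with a gap to its neighbor, as a share of the group's range, over Dixon's 95% critical value. These were Tead2 in wild-type library 1 (0.947, lowest) and Pkd1-/- library 1 (0.839, highest), Tead3 in Pkd1-/- library 3 (0.895, highest), Ankrd1 in wild-type library 4 (0.926, highest), Amotl2 in Pkd1-/- library 1 (0.867, lowest) and Amotl2 in Pkd2-/- library 4 (0.878, highest). Chance alone gives such a gap in about 1 of 20 groups.

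The Pkd2-/- effect minus the Pkd1-/- effect, tested as the difference between the mutants, passed an adjusted p under 0.05 in limma for 8 genes whose estimates against wild-type differ in sign, where 46.3% of all genes differed between the mutants. On the log2 scale it was 2.48 for Ankrd1, 1.65 for Ctgf, 0.82 for Cyr61, 0.75 for Tead4, 0.41 for Tead1, -0.21 for Yap1, -0.39 for Tead3 and -0.87 for Tead2. Only for Ankrd1, Ctgf, Tead2 and Tead4 did both effects against wild-type pass. Over all 18552 genes tested, 1243, or 6.7%, had both effects pass with opposite signs, out of 3176 that changed in both mutants. For Tead1 the Pkd1-/- effect and for Tead3 the Pkd2-/- effect did not, and for Cyr61 and Yap1 neither did.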

How the results depend on the processing

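The 30 fold changes of the 10 genes in 3 comparisons were recomputed under 8 other settings and with each of 12 libraries left out. Of 240 values under other settings, 226 kept direction and side of the threshold, 9 lost the adjusted p under 0.05, 5 gained it and 0 changed sign. With a library left out, 339 of 360 kept both, 17 lost it, 4 gained it and 0 changed sign. The number of the 10 genes called in Pkd1-/- cells lay between 1 and 2 with a library left out, since Ctgf reached -1.07 without Pkd1-/- library 4 and -1.09 without wild-type library 1. Over all genes tested, 1158 were called in Pkd1-/- cells, 739 with a minimum mean of 10, and between 859 and 1244 under the other alternatives. With a replicate block, Cyr61 passed in both mutants (log2 fold changes -0.41 and 0.41, adjusted p = 6.31e-04 and 3.54e-04 in limma), and Tead3 passed in Pkd2-/- cells (-0.18, adjusted p = 0.0289). The labels do not say that a number marks a shared day or batch. Over all genes averaging 1 or more, deviations of same-numbered libraries correlated at -0.041 to 0.057 over 12 pairs. Of the 12 libraries, 3 were most like one of their own number. Being taken over all genes, these values cannot show whether a small set shares a factor, such as the 11 genes with a common library order. With no pairing in the labels, the block stands here only as a variant. Without the variance trend, Cyr61 no longer differed between the mutants at the threshold (adjusted p = 0.0671), nor did Wwtr1 (0.0575), and Tead2 (0.0507) and Tead3 (0.0936) in Pkd1-/- cells and Tead1 (0.0972) in Pkd2-/- cells also missed it. With equal upper quartiles the difference of Wwtr1 was 0.10 (adjusted p = 0.0992). The cause was not tested.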
